A study of Mus musculus with 40 samples.

Results

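The data compared here were the cerebral cortex (cerebrum) and the cerebellum of young wild-type mice, measured on 8 of the 40 Agilent 1-colour arrays of the study, 4 arrays for each region. The arrays were chosen by their labels alone, as all those of wild-type mice of 2 months in either region. The mice were fed the normal diet (36 mg of α-tocopherol in each kg) and carried no transgene or deletion. The methods name the C57Bl/6 strain for the mice of the ischaemic model. The other 32 arrays came from mice of 29 months, wild-type or lacking Ttpa, the gene of the α-tocopherol transfer protein, on the normal, the deficient or the supplemented diet. The study used the regions to look for changes that were particular to the cerebrum, and the young groups give the starting difference between the regions. The methods name 4 mice per group. The labels do not say whether a cortex and a cerebellum came from the same mouse, nor the sex of the mice. The p-values set a difference against the spread within groups, estimated over all 40 arrays of the study. The cortex arrays lay on 1 slide and the cerebellum arrays on another, so that region and slide cannot be told apart within the 8 arrays.

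The cerebral cortex develops from the forebrain, and its projection neurons use glutamate, while its local interneurons use GABA and are often classed by the neuropeptides they make. The cerebellum develops from the anterior hindbrain. Most of its cells are small glutamatergic granule cells, and its only output neurons are the Purkinje cells, which use GABA and lie beside the radial processes of the Bergmann glia. Transcription factors of the LIM, Zic, Engrailed, T-box and Forkhead families are laid down in the embryo and in part kept in the adult neurons of each region. In whole tissue, fewer cells of a type and less RNA per cell cannot be told apart.

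Values are log2 signals relative to the 75th percentile of the same array, so a probe at 0 is as bright as that percentile. A difference is the mean of the cortex arrays minus that of the cerebellum arrays, with the standard error (SE) of the limma fit, and a call needs a fold change over 1.5 and a Benjamini-Hochberg adjusted p below 0.05. Where a gene was not well above background on any array of the lower region, the fold change is a lower bound for the processed signal used here. It sets the mean of the brighter region against the mean, in the dimmer region, of the higher of the lowest signal among probes well above background on that array and the dim probe's own signal. Some genes were well above background on part of the cerebellum arrays, on 1 of 4 for Lamp5, Drd1 and Chrm3, on 2 of 4 for Crym, Lhx2, Vip, Tac2, Pdyn, Slc5a7, Gabra5, Htr2a, Chrm1, Cbln4, Nptx2 and Egr2, and on 3 of 4 for Gda, Ddn, Drd2, Slc17a6, Slc18a3 and Cckbr. Their differences are as measured and rest in part on arrays without a level above background. Levels of different probes are not compared with each other.

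The 75th percentile of the signal was 365 to 472 in cortex and 546 to 707 in cerebellum, and the share of probes well above background was 51.4% to 57.0%. The labelled tissues carried their defining markers. Tbr1 and Emx1 were well above background on 4 of 4 cortex arrays, and Gabra6, Pcp2 and En2 on 4 of 4 cerebellum arrays. Both regions held arrays that stood apart within their group.

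In the cerebellum, replicates 3 and 4 carried more signal than replicates 1 and 2 for a set of neuronal transcripts. Slc17a6, a vesicular glutamate transporter of brainstem, thalamic and deep nuclei, measured -5.17, -1.93, 1.99 and 2.62 in cerebellum replicates 1 to 4 and 0.63 to 1.18 in cortex. Its difference was 1.47 ± 0.87 (SE, n = 4 and 4, limma, adjusted p = 0.144), 4.39 with cerebellum replicates 1 and 2 only, and -1.46 with replicates 3 and 4 only, and it was called toward cortex without cerebellum replicate 3 (2.34) or 4 (2.55). The direction of this gene therefore depended on which cerebellum arrays were used. Sst, the precursor of somatostatin, measured -2.88, -2.42, 2.03 and 2.56 in cerebellum against 5.08 to 5.21 in cortex, and Vip, the precursor of vasoactive intestinal peptide, -6.83, -6.80, -2.05 and -1.05 against 1.89 to 2.12. Lhx2, a LIM factor of the cortical primordium, measured -6.59, -5.88, -0.71 and 0.27 in cerebellum. For these 3 genes every cortex array stood above every cerebellum array, and the size of the difference changed with the choice of arrays. The log2 difference of Sst was 5.31, and it was 7.79 with replicates 1 and 2 and 2.84 with replicates 3 and 4. Emx1 and Fezf2, by contrast, were not well above background on any of the 4 cerebellum arrays. The correlation between a cortex array and a cerebellum array over all probes was 0.893 to 0.904 for cerebellum replicates 1 and 2 and 0.920 to 0.925 for replicates 3 and 4. Other differences also moved by more than 1.5 times in fold with this choice, and their values with replicates 3 and 4 only are given beside them.

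In the cortex, replicate 4 had less signal than the other cortex arrays for transcripts of neighbouring tissue. Ttr, the transthyretin of the choroid plexus, measured 6.90, 6.71, 6.81 and 0.76 in cortex replicates 1 to 4. Spink8, a hippocampal marker, measured 1.73 to 2.14 in replicates 1 to 3 and -2.27 in replicate 4. Hba-a1, an α-globin of blood, measured 0.015 to 0.32 in the same 3 arrays and -1.775 in replicate 4. Ttr also ran from 7.78 to 1.19 over the cerebellum arrays. Replicate 4 was low for all of these, and it was also low for Crym, at 3.90 against 5.26 to 5.38. What part these arrays' tissue make-up had in other differences was not tested.

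**Figure D1:**
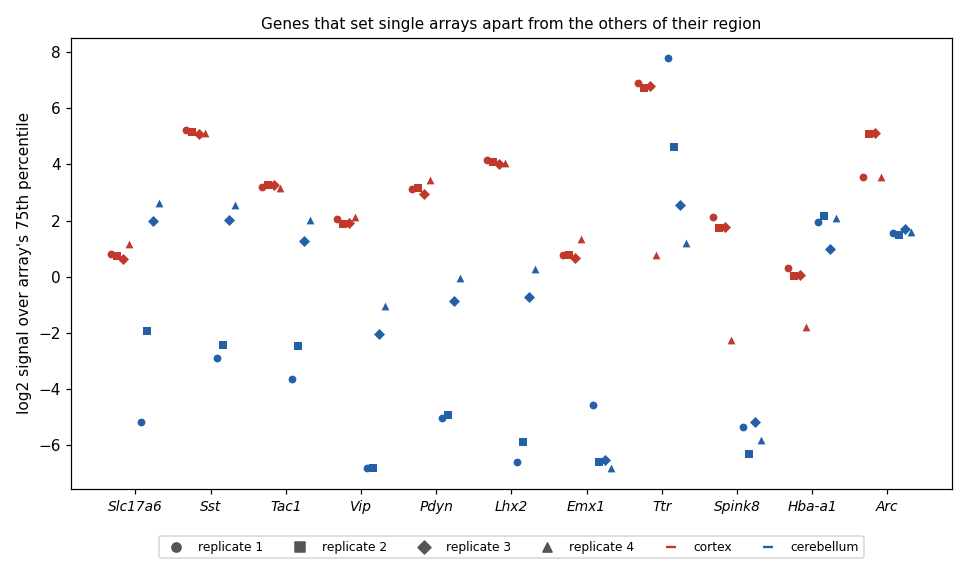
Relative log2 signal (vertical axis, on a log2 scale where 0 is the 75th percentile of the array) of 11 genes on each of the 4 cortex and 4 cerebellum arrays of wild-type mice of 2 months. Cerebellum replicates 3 and 4 lie above replicates 1 and 2 for Slc17a6, Sst, Tac1, Vip, Pdyn and Lhx2, and cortex replicate 4 lies below the other cortex arrays for Ttr, Spink8 and Hba-a1.

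The 2 regions differed widely. Of 30203 probes tested, 5766 (19.1%) were up-regulated in cortex relative to cerebellum and 5825 (19.3%) were down-regulated, that is, higher in cerebellum. The median difference over all probes tested was 0.02. The 4 cortex and 4 cerebellum values did not overlap for 17542 probes (58.1%), which for a single probe corresponds to p = 0.0286 in the exact two-sided permutation test, the smallest p that 4 arrays against 4 allow. With the brightest probe of each named gene, 3031 of 14184 genes (21.4%) were higher in cortex and 2459 (17.3%) in cerebellum, and the gene lists below are to be read against these percentages. A difference over 16-fold was reached by 206 genes toward cortex and 91 toward cerebellum. Of the 5766 and 5825 probe calls, 5317 and 5484 were also called with cerebellum replicates 1 and 2 only, and 5183 and 4947 with replicates 3 and 4 only, with 0 calls in the opposite direction in each.

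Tbr1, a T-box factor of deep-layer cortical projection neurons, measured 5.02, 4.91, 4.91 and 5.26 in cortex and -3.42, -3.48, -2.79 and -2.79 in cerebellum. The lowest cortex array exceeded the highest cerebellum array by several log2 units, and the difference was 8.14 ± 0.20 (limma, adjusted p = 2.772e-26), a 283-fold change. Crym, a thyroid hormone binding protein, measured 3.90 to 5.38 in cortex and differed by 9.89 ± 0.35, or by 9.29 with cerebellum replicates 3 and 4 only.

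The other genes with the largest differences toward cortex included a channel subunit, a keratin, a factor, an adhesion molecule and an enzyme. Kcnv1, a modifier subunit of potassium channels, was at least 156-fold higher and Krt12, a keratin, at least 146-fold higher. Fezf2, a factor of subcerebral projection neurons, was at least 51.7-fold higher. Lamp5, a lysosome-associated membrane protein of neurons, differed by 8.41 ± 0.41. Icam5, an adhesion molecule of telencephalic dendrites, differed by 8.03 ± 0.38, Ddn (dendrin), a protein of dendrites, by 7.69 ± 0.28 and Gda, a guanine deaminase, by 7.83 ± 0.69. With cerebellum replicates 3 and 4 only, the differences of Lamp5, Icam5 and Ddn were 7.39, 6.86 and 6.95, and that of Gda was 5.33.

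Gabra6, the GABA-A receptor subunit α6 of granule cells, had the largest difference toward cerebellum. It measured 5.56, 5.59, 5.47 and 5.44 in cerebellum and was not above background on any cortex array, where the probe read -6.45 to -5.47. The probe lies at chr11:42120087-42120146 of mm9, the build of the files. The difference was at least 983-fold (limma, adjusted p = 4.513e-36), or 9.94 in log2. Its smallest value among the alternatives run was -8.10. This bound and the others given here therefore hold for the processed signal and not under every background correction. Pcp2, a modulator of G-protein signalling in Purkinje cells, measured 8.21, 8.11, 7.96 and 7.80 in cerebellum and -0.81, -0.80, -0.89 and -0.85 in cortex. Both regions were measured and both were tight for this gene, and the difference was -8.86 ± 0.12. En2, an Engrailed factor of the midbrain and hindbrain, measured 5.10, 5.30, 5.24 and 5.15 in cerebellum and -2.47 to -2.17 in cortex. No array of one region came near the other, and the difference was -7.53 ± 0.09 (limma, adjusted p = 1.412e-34).

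The remaining large differences toward cerebellum included an enzyme, signalling proteins and factors. Dao, the D-amino acid oxidase, was at least 474-fold higher in cerebellum, and Ppp1r17, a phosphatase inhibitor of Purkinje cells, at least 328-fold. Lhx1 and Lhx5, LIM factors of Purkinje cells, were at least 111-fold and 78.3-fold higher. Cbln3, a granule cell cerebellin, was at least 119-fold higher, Zfp385c, a zinc finger protein, at least 193-fold, Arhgef33, a guanine nucleotide exchange factor, at least 129-fold, and Bcl2l15, of the Bcl2 family, at least 88.7-fold. Crtam, an adhesion protein first described in T cells, differed by -10.51 ± 0.41, with 1 of 4 cortex arrays above background. That array, cortex replicate 3, read -3.97 against -6.43 to -6.20 in the others.

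**Figure D2:**
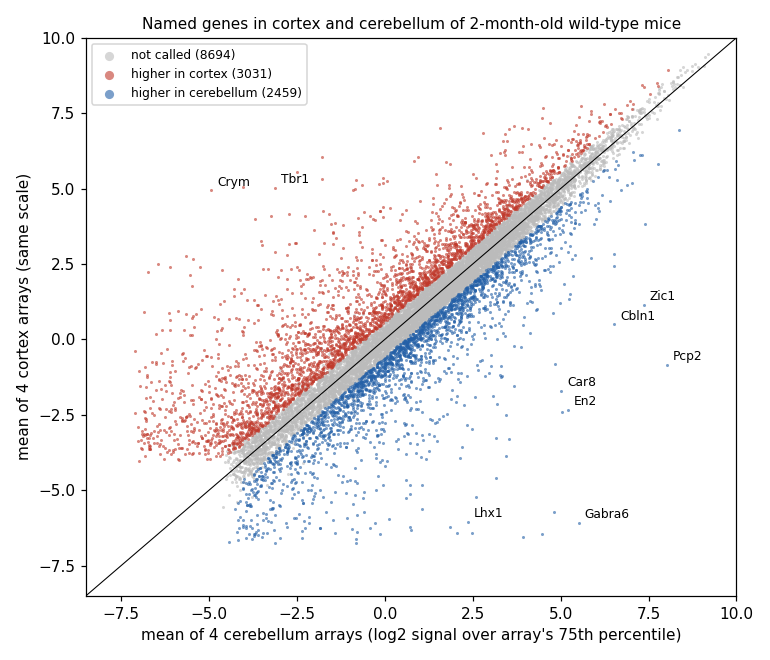
Mean relative log2 signal in cerebellum (horizontal axis) against that in cortex (vertical axis) of wild-type mice of 2 months, 4 arrays each, for the named genes tested, with called genes in colour. Tbr1 and Crym lie far on the cortex side, and Gabra6, Pcp2, En2, Car8, Cbln1, Lhx1 and Zic1 far on the cerebellum side.

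The 250 bases before the transcription start in RefSeq (GRCm38.p6) are shown for 3 of these genes, as the regulatory sequence next to a start whose transcript is bright in one region: a cortical factor, a granule cell receptor subunit and a Purkinje cell gene. Capitals mark matches on either strand to the homeobox core TAATTA or the bHLH motif CAGATG, which do not overlap each other. The Tbr1 sequence is chr2:61804203-61804452 on the plus strand, the Gabra6 sequence chr11:42321073-42321322 on the minus strand, and the Pcp2 sequence chr8:3625548-3625797 on the minus strand, for the first of 4 starts listed.
Tbr1: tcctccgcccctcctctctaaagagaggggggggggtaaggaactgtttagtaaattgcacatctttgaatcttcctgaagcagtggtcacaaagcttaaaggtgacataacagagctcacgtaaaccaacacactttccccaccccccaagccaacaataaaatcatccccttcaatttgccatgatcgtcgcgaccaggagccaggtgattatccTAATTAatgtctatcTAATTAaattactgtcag
Gabra6: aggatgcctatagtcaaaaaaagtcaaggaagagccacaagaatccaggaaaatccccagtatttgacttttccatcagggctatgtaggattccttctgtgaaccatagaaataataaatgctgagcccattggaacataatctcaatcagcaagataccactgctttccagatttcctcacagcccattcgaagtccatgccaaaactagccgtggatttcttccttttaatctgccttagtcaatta
Pcp2: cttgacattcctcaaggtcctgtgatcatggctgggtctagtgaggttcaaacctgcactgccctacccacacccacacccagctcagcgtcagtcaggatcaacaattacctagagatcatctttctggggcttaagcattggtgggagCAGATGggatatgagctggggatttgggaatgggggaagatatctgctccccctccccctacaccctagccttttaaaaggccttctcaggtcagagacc
Tbr1 held 2 TAATTA matches, 33 and 18 bases before the start, Pcp2 held 1 CAGATG match 100 bases before it, and Gabra6 held neither. The GC content was 45.2%, 52.8% and 40.8%. TAATTA occurred in 4.9% of the 27025 promoters of the table, in 2.79% of those of 2331 genes higher in cortex and in 3.18% of those of 1916 genes higher in cerebellum. CAGATG occurred in 14.5%, 11.1% and 10.8%. A match describes these letters and is not a measured binding site.

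Transcription factors separated the regions in both directions. Of 38 forebrain factors tested, 30 were higher in cortex and 3 in cerebellum (5 without cortex replicate 4), with a median difference of 2.94. Besides Tbr1 and Fezf2, Emx1, a homeobox factor of the dorsal telencephalon, was at least 50.8-fold higher in cortex. Dlx2, a homeobox factor of forebrain interneurons, was at least 21.3-fold higher. Neurod6, a bHLH factor of cortical projection neurons, differed by 4.11 ± 0.14 and Bcl11a, a zinc finger factor of deep layers, by 2.49 ± 0.11. The differences of Lhx2, 7.31, and of Meis2, a TALE homeobox factor, 4.21, were 4.30 and 1.81 with cerebellum replicates 3 and 4 only.

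The forebrain factors that went the other way are also used in the cerebellum. Zfpm2, a GATA cofactor, measured 0.15 to 0.56 in cortex and 2.62 to 2.98 in cerebellum, a difference of -2.33 ± 0.13. Etv1, an ETS factor of layer 5 neurons and of granule cells, differed by -1.84 ± 0.09, and Neurod2, a bHLH factor of cortical and granule neurons, by -0.87 ± 0.07. Among those not called, Lhx6, a LIM factor of interneurons, differed by 0.13 ± 0.23. Its probe measured 4.86 to 5.62 in cortex and 4.92 to 5.15 in cerebellum.

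Of 31 hindbrain and cerebellar factors tested, 29 were higher in cerebellum and 0 in cortex, with a median of -4.26. Zic1, a zinc finger factor of granule cells, measured 0.82 to 1.29 in cortex and 7.32 to 7.42 in cerebellum, and differed by -6.22 ± 0.14. Zic2 of the same family differed by -4.26 ± 0.28. Tfap2b, an AP-2 factor of cerebellar GABAergic neurons, differed by -6.06 ± 0.15, Skor1, a corepressor of Purkinje cells, by -6.42 ± 0.26 and Pax6, a paired-box factor of granule cells and of the developing cortex, by -3.48 ± 0.12. Irx3, an Iroquois factor, was at least 19.7-fold higher, and Mab21l1, a developmental regulator, at least 33.0-fold.

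The members without a call were Pax2, with -0.34 ± 0.42, and Barhl1, a granule cell factor, with -0.55 ± 0.11 at its brighter probe and a call toward cerebellum at the other. The brighter probe was called without cortex replicate 4 (-0.63) or cerebellum replicate 2 (-0.60). A further 7 members, En1, Pax5, Atoh1, Lhx9, Gbx2, Ptf1a and Lmx1a, were not above background on all 4 arrays of either region and were not tested. None of the 13 Hox genes of the caudal hindbrain on the array was tested for the same reason, and single arrays held some signal. The number of these markers of the medulla above background was 1, 0, 0 and 4 of 13 on cerebellum replicates 1 to 4, and 0, 0, 1 and 0 on the cortex arrays.

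**Figure D3:**
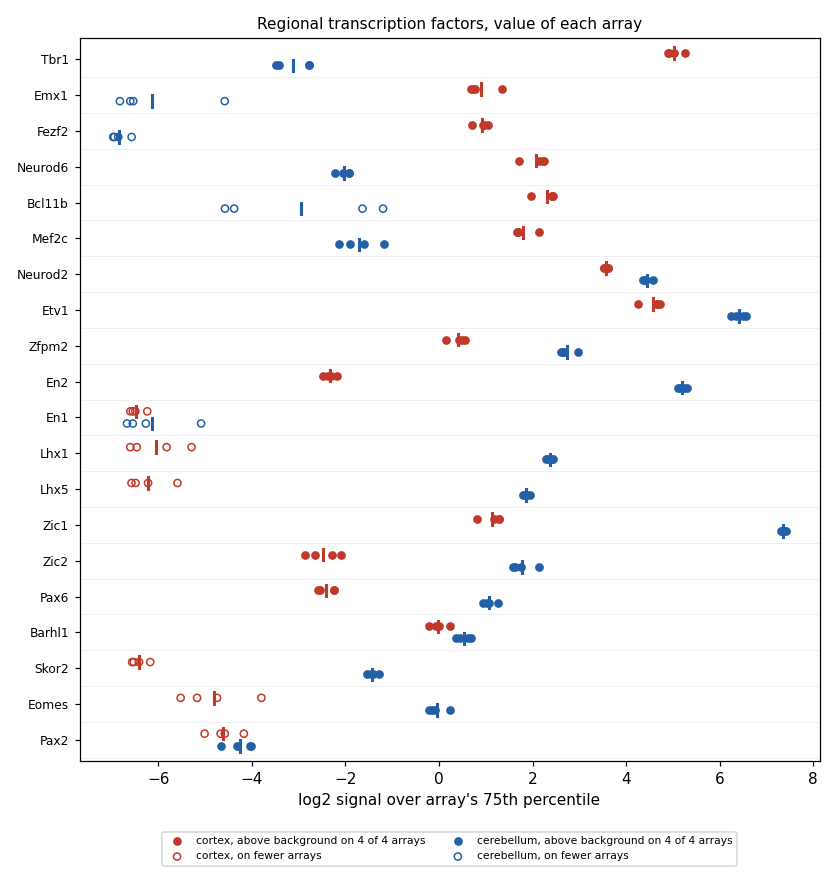
Relative log2 signal (horizontal axis) of forebrain and hindbrain transcription factors on each of the 4 cortex and 4 cerebellum arrays, 2 months, with filled symbols where the gene was above background on 4 of 4 arrays of that region and open symbols where it was on fewer. Tbr1 lies near 5 in cortex, En2 lies near 5 in cerebellum and Zic1 between 7.32 and 7.42.

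Markers of cortical glutamatergic neurons were higher in cortex for 17 of 21 genes tested, with a median of 4.11. Camk2a, the α subunit of the calcium/calmodulin kinase II, measured 3.96 to 4.15 in cortex and -0.90 to 0.14 in cerebellum, a difference of 4.51 ± 0.16. Nrgn, the calmodulin-binding neurogranin, differed by 5.83 ± 0.64, and by 3.58 with cerebellum replicates 3 and 4 only. Ptk2b, a calcium-activated tyrosine kinase, differed by 5.73 ± 0.25, and by 5.003 with those arrays. The upper-layer factors Rorb and Cux2 differed by 2.22 ± 0.16 and 1.57 ± 0.13. Slc17a7, the vesicular glutamate transporter of both cortical neurons and granule cells, differed less, by 1.53 ± 0.17. The 3 members higher in cerebellum were Nptx1, a neuronal pentraxin, at -1.07 ± 0.15, Nxph4, a neurexophilin, at -0.72 and Whrn, a scaffold protein, at -0.70 ± 0.14. Nxph4 was not called without cerebellum replicate 4 (-0.57) or with replicates 1 and 2 only (-0.38).

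Interneuron markers divided by kind. Of 21 tested, 11 were higher in cortex and 7 in cerebellum, with a median of 0.82. The members higher in cortex were mostly neuropeptides, while the calcium-binding proteins went the other way. Calb2 (calretinin), also a granule cell protein, differed by -5.44 ± 0.26, and Pvalb (parvalbumin), also made by Purkinje cells and cerebellar interneurons, by -3.56 ± 0.20. The genes of GABA synthesis and vesicular loading, Gad1 and Slc32a1, differed by -0.86 ± 0.08 and -0.84, and Gad2, the other synthesizing enzyme, by -0.01 ± 0.08. Reln, the secreted reelin, differed by -1.499 ± 0.16, Cnr1, the cannabinoid receptor of axon terminals, by -1.53 ± 0.09 and Prox1, a homeobox factor, by -1.75 ± 0.15.

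Neuropeptide precursors were higher in cortex for 16 of 22 tested and in cerebellum for 0, with a median of 2.38. Cort, the precursor of cortistatin, measured 3.05 to 3.31 in cortex and -1.86 to -1.52 in cerebellum, a difference of 4.93 ± 0.19. Tac2, the precursor of neurokinin B, differed by 5.94 ± 0.57 and Crh, that of corticotropin-releasing hormone, by 4.75 ± 0.40. Cck, the precursor of cholecystokinin, and Npy, that of neuropeptide Y, were bright in both tissues and differed by 2.16 ± 0.10 and 2.09 ± 0.14. With cerebellum replicates 3 and 4 only, Tac2 and Crh differed by 4.83 and 4.11. Vip, Pdyn (dynorphin) and Tac1 (substance P) differed by 6.18, 5.89 and 3.93, and by 3.55, 3.63 and 1.58 with cerebellum replicates 3 and 4 only. Penk, the precursor of enkephalins, was not called, at 0.30 ± 0.24.

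Cells of the cerebellum gave the mirrored pattern. Granule cell markers were higher in cerebellum for 17 of 19 tested, with a median of -3.89, and their summed signal, as a multiple of the 75th percentile, was 608 to 672 on the cerebellum arrays and 79.8 to 85.7 on the cortex arrays. Besides Gabra6 and Cbln3, Fat2, a giant cadherin of granule cell axons, differed by -7.43 ± 0.16. Cbln1, the secreted cerebellin of granule cell synapses, measured 0.29 to 0.76 in cortex and 6.40 to 6.64 in cerebellum, a difference of -6.02 ± 0.17. Neurod1, a bHLH factor, and Cdh15, a cadherin, differed by -4.54 ± 0.15 and -4.18 ± 0.12. Slc17a7 was the member that went against the list.

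Purkinje cell markers were higher in cerebellum for 24 of 26 tested, with a median of -3.28. Their summed signal was 1240 to 1457 in cerebellum and 214 to 274 in cortex. Car8, a carbonic anhydrase-related protein that binds the IP3 receptor, differed by -6.72 ± 0.48, Calb1 (calbindin) by -3.25 ± 0.14 and Itpr1, the IP3 receptor itself, by -1.96 ± 0.08. Itpr1 was bright in both regions, at 5.68 to 5.98 and 7.62 to 7.88. Slc1a6, the glutamate transporter of Purkinje cells, differed by -4.08 ± 0.11. Among the 2 members without a call was Foxp2, a Forkhead factor of deep cortical layers and Purkinje cells, at -0.23 ± 0.33 (0.79 with cerebellum replicates 1 and 2 only and -1.25 with replicates 3 and 4 only).

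The smaller cerebellar classes were less uniform. Of 11 markers of cerebellar interneurons and unipolar brush cells, 6 were higher in cerebellum and 3 in cortex. Kit, a receptor tyrosine kinase of molecular layer interneurons, differed by -1.71 ± 0.12 and Sorcs3, a sorting receptor, by 1.69 ± 0.12. Of 13 Bergmann glia markers, 8 were higher in cerebellum and 1 in cortex, with a median of -1.70. Gdf10, a growth factor of the TGF-β family, measured -1.34 to -1.16 in cortex and 3.26 to 3.44 in cerebellum, a difference of -4.56 ± 0.11. A2m, a protease inhibitor, was at least 11.6-fold higher in cerebellum, and Slc1a3, a glial glutamate transporter, differed by -1.20 ± 0.08. Npy2r, a neuropeptide Y receptor, was the member higher in cortex, at least 15.1-fold.

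The lists of astrocytes, oligodendrocytes and vessels had medians near 0. Of 20 astrocyte markers, 6 were higher in cortex and 7 in cerebellum, with a median of -0.19. Slc1a2, the main glutamate transporter of cortical astrocytes, measured 3.97 to 4.28 in cortex and 1.87 to 2.13 in cerebellum, a difference of 2.07 ± 0.10. Agt, the angiotensinogen of astrocytes, and Slc4a4, a bicarbonate transporter, differed by -2.32 ± 0.26 and -1.98 ± 0.18. Of 21 oligodendrocyte markers, 2 were higher in cortex, 3 in cerebellum and 16 were not called. The calls toward cortex were 5 without cerebellum replicate 4, 7 with replicates 1 and 2 only and 1 with replicates 3 and 4 only, where Olig1 fell under the threshold at 0.55. The myelin gene Mbp measured 3.40 to 4.11 in cortex and differed by 0.03 ± 0.20. The factors Olig1 and Olig2 differed by 0.75 ± 0.14 and 0.88 ± 0.16, and Klk6, a protease of mature oligodendrocytes, by -2.68 ± 0.51.

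Markers of oligodendrocyte precursors were higher in cortex for 7 of 11 and in cerebellum for 0, with a median of 1.30. Pdgfra, the receptor that defines these cells, measured 1.21 to 1.50 in cortex and -0.53 to 0.00 in cerebellum, a difference of 1.58 ± 0.10. Gpr17, a receptor of committed precursors, differed by 1.72 ± 0.23. Of 22 genes of endothelial cells and pericytes, 2 were higher in cortex, which were Mfsd2a, a lipid transporter of the blood-brain barrier, at 0.91 ± 0.29 and Kdr, a VEGF receptor, at 0.75 ± 0.15. Mfsd2a was not called with cerebellum replicates 3 and 4 only (0.67, limma, adjusted p = 0.11). The median of the list was 0.07.

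Microglial markers moved together. Of 20 tested, 17 were higher in cortex and 1 in cerebellum, with a median of 1.71. Cx3cr1, the fractalkine receptor, measured 3.45, 3.35, 3.11 and 3.50 in cortex and 1.19, 1.103, 1.33 and 1.44 in cerebellum. The ranges of the regions lay far apart, and the difference was 2.08 ± 0.14. P2ry12, a purinergic receptor, and Tmem119, a membrane protein of resident microglia, differed by 2.02 ± 0.17 and 2.09 ± 0.12, and Csf1r, the receptor these cells need to survive, by 1.73 ± 0.11. The complement gene C1qa differed by 1.60 ± 0.15. Olfml3, a secreted protein, was the member with a call toward cerebellum, at -0.76 ± 0.16, and its other probe was called toward cortex. Itgam and Siglech were not called, at 0.20 ± 0.16 and -0.10 ± 0.18.

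**Figure D4:**
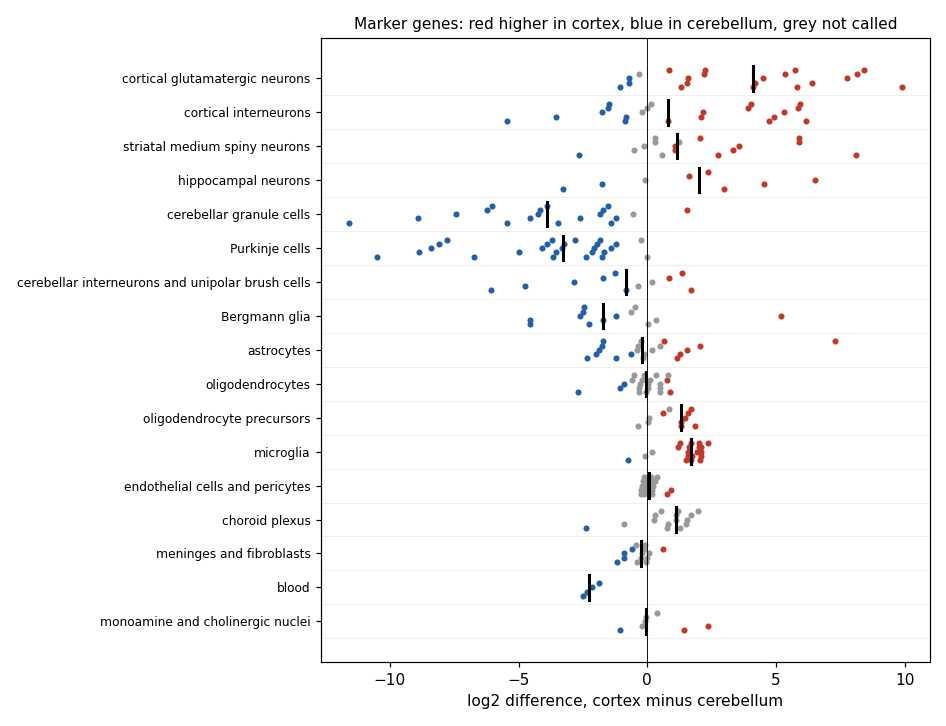
Log2 difference of cortex minus cerebellum (horizontal axis, mean of 4 arrays minus mean of 4 arrays, 2 months) of each tested member of the marker lists, with a black bar at the median of a list. Differences are as measured, also where the lower region was not above background. The medians are 4.11 for cortical glutamatergic neurons, 1.71 for microglia, -0.03 for oligodendrocytes, -3.28 for Purkinje cells and -3.89 for granule cells.

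Neighbouring tissue was checked with the same fit. Of 16 striatal markers, 9 were higher in cortex and 1 in cerebellum (2 without cortex replicate 4 or cerebellum replicate 1), with a median of 1.15. Drd1, the D1 dopamine receptor, measured -0.56, -0.18, -0.42 and -0.10 in cortex and -6.82 to -4.66 in cerebellum, a difference of 5.88 ± 0.40. Adora2a, an adenosine receptor, and Rgs9, a regulator of dopamine signalling, differed by 3.34 ± 0.43 and 3.56 ± 0.30, and Rgs9 by 2.85 with cerebellum replicates 3 and 4 only. Ppp1r1b (DARPP-32) was not called, at -0.12 ± 0.23, and Strip2, a signalling scaffold, was higher in cerebellum at -2.63 ± 0.15. Striatal tissue in a cortex sample and expression by cortical neurons cannot be told apart in these data. Drd2, the D2 receptor, differed by 1.09 ± 0.30, and lost its call with cerebellum replicates 3 and 4 only, at 0.69.

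Of 15 choroid plexus markers, 0 were higher in cortex and 1 in cerebellum, Otx2, a homeobox factor. Without cerebellum replicate 1, or with cerebellum replicates 3 and 4 only, 8 of them were called toward cortex. Without cortex replicate 4, 11 of them were called toward cortex and Otx2 was not called, at -1.45 (limma, adjusted p = 0.128). The summed signal of the list was 145, 124, 134 and 3.39 in cortex and 263, 34.6, 12.8 and 9.93 in cerebellum. Of 4 blood genes, 4 were higher in cerebellum, and 0 were called without cortex replicate 4 or with cerebellum replicates 3 and 4 only, and 2 without cerebellum replicate 1, 2 or 4. Against the deficient-diet Ttpa-/- cortex that shared the slide of the cerebellum arrays, the same 4 genes were higher in cortex. Of 14 markers of meninges and fibroblasts, 4 were higher in cerebellum, among them Col3a1, a fibrillar collagen, at -1.19 ± 0.28. Dcn, a proteoglycan, was called toward cortex at 0.60 (limma, adjusted p = 0.0428), and was not called in 7 of the 8 fits that left out 1 array. Of 7 markers of monoamine and cholinergic nuclei, the cholinergic genes Slc18a3 and Slc5a7 were higher in cortex, by 1.43 ± 0.37 and 2.38 ± 0.42, and the second by 1.68 with cerebellum replicates 3 and 4 only. Th, the tyrosine hydroxylase also found in some Purkinje cells, was higher in cerebellum, at -1.07 ± 0.15.

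Receptors for glutamate changed subunit by subunit. Of 18 ionotropic genes tested, 7 were higher in cortex and 7 in cerebellum, with a median of 0.26. The NMDA receptor subunit Grin2b measured 2.02 to 2.46 in cortex and -3.10 to -1.72 in cerebellum, a difference of 4.72 ± 0.19, and Grin2a differed by 1.66 ± 0.11. Grin2c, the NMDA receptor subunit of mature granule cells, went the other way, at -2.61 ± 0.10, with 2.66 to 2.96 in cortex and 5.25 to 5.58 in cerebellum. The AMPA receptor subunit Gria4, also found in Bergmann glia, differed by -2.47 ± 0.12, and Gria1 was not called, at 0.04 ± 0.14. The 2 probes of Gria2 were called in opposite directions, and the brighter was not called without cortex replicate 4, cerebellum replicate 1 or cerebellum replicate 4. Of 7 metabotropic receptors, Grm5, coupled to calcium release, differed by 4.12 ± 0.47, and by 2.65 with cerebellum replicates 3 and 4 only. Grm4, a receptor of granule cell axons, differed by -1.91 ± 0.16, and 5 of the 7 were higher in cortex.

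Of 15 GABA-A subunits tested, 7 were higher in cortex and 2 in cerebellum. The α subunits divided. Gabra5, an extrasynaptic subunit of hippocampus and cortex, differed by 5.72 ± 0.58, with 0.90 to 1.75 in cortex and -6.65, -5.56, -2.85 and -2.08 in cerebellum. Gabra3 differed by 3.68 ± 0.28, Gabra2 by 1.08 ± 0.18 and the γ subunit Gabrg3 by 3.62 ± 0.28. Gabra2 was not called with the slide as a block (0.84) or against the Ttpa-/- cortex on the slide of the cerebellum arrays (0.36). With cerebellum replicates 3 and 4 only, Gabra5, Gabra3 and Gabrg3 differed by 3.90, 3.06 and 2.72. Gabrd, which pairs with Gabra6 in granule cells, measured 3.65 to 4.37 in cortex and 5.27 to 5.58 in cerebellum, a difference of -1.54 ± 0.13. The widely used subunit Gabrb2 stayed under the fold threshold, at -0.42 ± 0.09 (limma, adjusted p = 7.073e-05).

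Receptors for amines, acetylcholine and peptides were mostly higher in cortex. Of 10 serotonin receptors tested, 9 were higher in cortex, with a median of 3.62. Htr2a, the 5-HT2A receptor of projection neurons, measured -0.29 to 0.50 in cortex and -5.56 to -3.95 in cerebellum, a difference of 4.82 ± 0.29, or 4.19 with cerebellum replicates 3 and 4 only. The ion channel subunit Htr3a was at least 8.37-fold higher in cortex. Htr1b, a presynaptic receptor, was at least 1.52-fold higher in cerebellum. With a normexp background correction its difference was 0.0462 and was not called. Of 13 dopamine and adrenergic receptors, 9 were higher in cortex. Adrb1 and Adra1d differed by 3.12 ± 0.13 and 3.13 ± 0.16.

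Of 10 acetylcholine receptors, 6 were higher in cortex. The muscarinic receptor Chrm1 measured 2.23 to 2.40 in cortex and -5.38, -5.17, -4.31 and -3.67 in cerebellum, a difference of 6.93 ± 0.37. Chrm3 differed by 6.00 ± 0.49. With cerebellum replicates 3 and 4 only these were 6.29 and 4.97. The nicotinic subunits Chrnb2 and Chrnb4 were higher in cerebellum, at -1.44 ± 0.08 and -1.62 ± 0.15. Of 21 neuropeptide receptors, 14 were higher in cortex and 2 in cerebellum, with a median of 2.05. Ntsr1, the neurotensin receptor of layer 6 neurons, was at least 44.7-fold higher in cortex, and Sstr2, a somatostatin receptor, at least 9.61-fold. Cckbr, a cholecystokinin receptor, differed by 5.57 ± 0.66, and by 3.45 with cerebellum replicates 3 and 4 only. Vipr2, a receptor for vasoactive intestinal peptide, and Crhr1, that for corticotropin-releasing hormone, were higher in cerebellum, at -2.85 ± 0.20 and -1.08 ± 0.14. The precursors of both peptides were thus higher in cortex and these receptors in cerebellum. Of 10 opioid, adenosine and cannabinoid receptors, 6 were higher in cortex, with Oprk1, the κ opioid receptor, at least 8.31-fold higher, and 2 in cerebellum, Cnr1 and Cnr2.

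**Figure D5:**
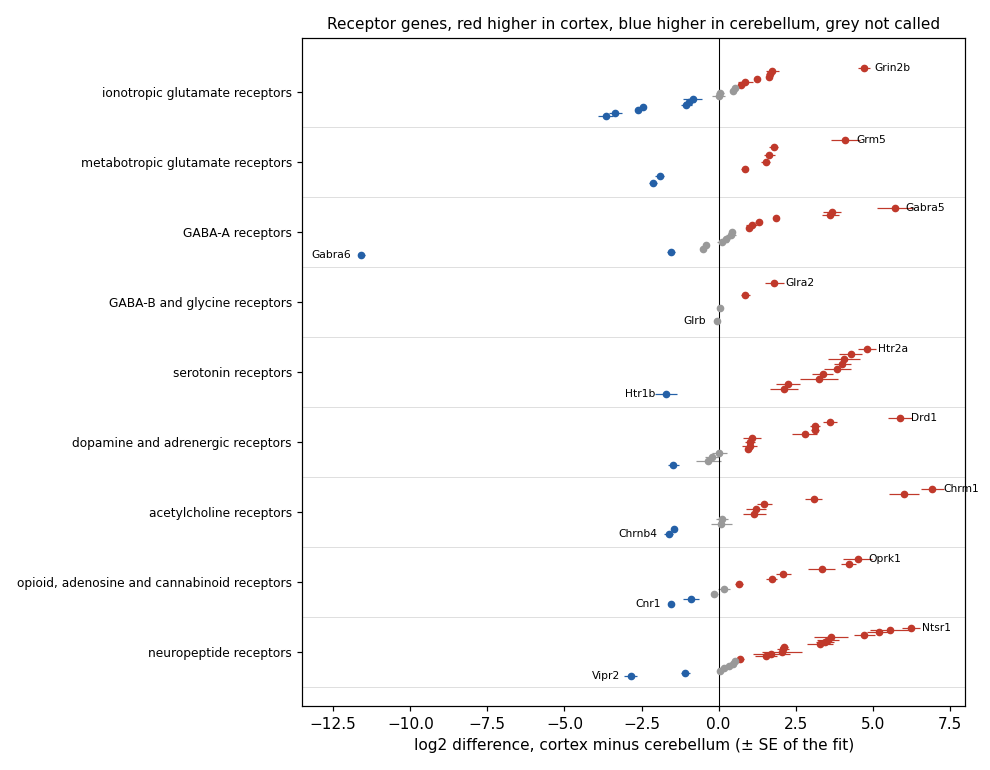
Log2 difference of cortex minus cerebellum with its standard error from the limma fit (horizontal axis, 4 arrays against 4, 2 months) for receptor genes by family. Differences are as measured, also where one region was not above background. Gabra6 lies at -11.59, Grin2c at -2.61 and Grin2b at 4.72, and 9 of 10 serotonin receptors lie on the cortex side.

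Genes that act at and behind the synapse followed in families. Of 17 secreted synaptic organisers, 10 were higher in cortex and 5 in cerebellum. Cerebellins divided, with Cbln1 and Cbln3 higher in cerebellum and Cbln4 higher in cortex, at 4.53 ± 0.62. C1ql3, a C1q-like protein of excitatory terminals, differed by 4.21 ± 0.19, the neuronal pentraxin Nptx2 by 5.07 ± 0.36 and Lgi4, a secreted protein of glia, by -1.502 ± 0.11. Cbln4 and Nptx2 differed by 2.76 and 4.33 with cerebellum replicates 3 and 4 only. Of 27 calcium and calmodulin genes, 9 were higher in cortex and 10 in cerebellum, with a median of -0.0005. The kinases divided as the receptors did, with Camk2a at 4.51, and Camk4, a nuclear kinase of granule cells, at -1.53 ± 0.09. Of 17 genes of transmitter synthesis and transport, 5 were higher in cortex (8 with cerebellum replicates 1 and 2 only, 3 with replicates 3 and 4 only) and 6 in cerebellum, among them Slc6a9, a glial glycine transporter, at -1.54 ± 0.13.

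Hedgehog is a secreted signal of Purkinje cells that acts on granule cell precursors and on Bergmann glia. Of 11 pathway genes tested, 7 were higher in cerebellum and 1 in cortex, with a median of -1.62. The ligand Shh measured -4.25 to -3.99 in cortex and -2.62 to -2.37 in cerebellum, a difference of -1.62 ± 0.14. The receptor Ptch1 differed by -1.80 ± 0.16 and the coreceptors Cdon, Boc and Gas1 by -2.14 ± 0.10, -1.83 ± 0.11 and -1.60 ± 0.12. The transcriptional target Gli1 measured -1.79 to -1.33 in cortex and 1.15 to 1.37 in cerebellum, a difference of -2.82 ± 0.17. Gli2, the activator, was at least 2.23-fold higher in cerebellum, and Gli3, which acts mostly as a repressor, was higher in cortex, at 0.68 ± 0.10. With a normexp background correction, Shh, Gli2 and Gli3 differed by -0.46, -0.26 and 0.55 and fell under the fold threshold, as did Gli3 with cerebellum replicates 3 and 4 only.

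Immediate early genes, which neurons switch on after activity, were higher in cortex for 10 of 16 and in cerebellum for 1, with a median of 2.21. Arc, a regulator of synaptic strength, measured 3.54, 5.08, 5.12 and 3.55 in cortex and 1.48 to 1.70 in cerebellum, a difference of 2.74 ± 0.27. Cortex replicates 2 and 3 were higher than replicates 1 and 4, and both pairs lay above every cerebellum array. Fos measured 0.34, 1.85, 2.14 and 0.26 in cortex and -1.97, 1.82, 1.98 and -0.59 in cerebellum. Its regions overlapped, and it was not called, at 0.84 ± 0.51. It was called without cerebellum replicate 2 (1.34) or replicate 3 (1.40). In both regions Fos read higher on replicates 2 and 3 than on replicates 1 and 4. Whether same-numbered arrays shared a mouse was not tested. Egr1, Npas4 and Egr2, all activity-driven factors, differed by 2.31 ± 0.20, 3.30 ± 0.32 and 6.20 ± 0.48, and Egr2 by 5.03 with cerebellum replicates 3 and 4 only. Ier2, another early gene, was higher in cerebellum at -0.81 ± 0.26, and not called without cortex replicate 4, at -0.60, or with cerebellum replicates 3 and 4 only, at -0.67.

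Of 10 listed genes that the study named, 8 were tested, with 1 higher in cortex and 2 in cerebellum. Pla2g3, a secreted phospholipase A2, measured -1.77, -2.11, -1.96 and -2.25 in cortex and -2.44, -1.35, -2.50 and -2.21 in cerebellum. The regions overlapped, and the difference was 0.10 ± 0.40 (limma, adjusted p = 0.839). Ide, the insulin-degrading enzyme, measured 0.66, 0.64, 0.45 and 1.502 in cortex and 1.26, 1.105, 1.13 and 1.67 in cerebellum, a difference of -0.48 ± 0.21 that stayed under the fold threshold. Cortex replicate 4 stood above the other cortex arrays for this gene, and without it the difference was -0.71 and was called. App, the amyloid precursor protein, differed by 0.27 ± 0.07 and was not called.

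Ttpa itself was not above background on any cortex array and measured -3.27 to -2.76 in cerebellum, at least 2.66-fold higher there. With the normexp correction its difference was -0.28, under the fold threshold. Car8, described above, was the other call toward cerebellum. Gm3448 was higher in cortex, at 0.86 ± 0.29, and not called without cortex replicate 4, at 0.63 (limma, adjusted p = 0.0732), or with cerebellum replicates 3 and 4 only, at 0.57. Tcp10c and Tsga10 were not called, at -0.08 ± 0.16 and 0.51 ± 0.22, although the second was called without cortex replicate 3 or cerebellum replicate 1, and Fcgbp and Mybpc2 were not above background in either region. Of 16 housekeeping genes, 2 were called, both toward cortex, which were Actb at 0.62 ± 0.08 and Ywhaz at 0.84 ± 0.12. Actb was not called without cortex replicate 2, at 0.57.

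The same comparison in wild-type mice of 29 months on the same diet, on 8 other arrays, shows how far the regional pattern was kept with age. Of 5626 probes higher in cortex at 2 months and tested at both ages, 4272 (75.9%) were also called at 29 months and 3 were called the other way. Of 5693 probes higher in cerebellum, 4543 (79.8%) were called again and 4 the other way. The difference between the ages was tested as an interaction in the same fit. The cortex of both ages shared 1 slide, while the young and the aged cerebellum lay on different slides, so that age and slide cannot be told apart on the cerebellum side. Of 31372 probes, 314 (1.0%) had a signed difference shifted toward cortex at 2 months, and 145 (0.462%) one shifted toward cerebellum. Such a shift need not be a larger difference at 2 months. Vipr2 shifted toward cortex with -2.85 at 2 months and -3.93 at 29 months, and Ttr toward cerebellum with 1.26 and 8.87.

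Microglial markers held 13 of these interactions among 20 genes, all toward cortex at 2 months. The median of the list was 1.71 at 2 months and 0.38 at 29 months, when 9 were higher in cortex and 1 in cerebellum. Trem2, a lipid receptor of microglia, measured 2.00 to 2.56 in cortex and 0.12 to 0.70 in cerebellum at 2 months, and its means at 29 months were 3.01 and 3.13. The aged regions were thus nearly level, with a difference of 1.71 at 2 months and -0.11 at 29 months (interaction 1.82, limma, adjusted p = 1.345e-05). Tyrobp, the adaptor of Trem2, had differences of 1.51 and -0.20 (interaction 1.71, limma, adjusted p = 1.392e-06), and C1qa of 1.60 and 0.22. Cx3cr1 and Csf1r kept part of the difference, with 1.09 and 0.96 at 29 months, and their interactions were not called under scaling to the median (limma, adjusted p = 0.1409 and 0.2728) or with cerebellum replicates 3 and 4 only (0.05042 and 0.05585). P2ry12 had 2.02 and 1.58, and its interaction was not called (0.44, limma, adjusted p = 0.522). The list held 8 interactions under scaling to the median and 9 with cerebellum replicates 3 and 4 only.

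Striatal markers held 6 interactions among 16, all toward cortex at 2 months. The list's median was 1.15 at 2 months and 0.30 at 29 months. Rgs9 had differences of 3.56 and 1.39, Tnnc1, a troponin of striatal neurons, of 2.73 and 1.12, and Drd2 of 1.09 and -0.67. The interaction of Rgs9 was not called with cerebellum replicates 3 and 4 only (1.46, limma, adjusted p = 0.0885). That of Drd2 was not called without cortex replicate 4, cerebellum replicate 1 or 2, or 29-month cerebellum replicate 3, nor with cerebellum replicates 3 and 4 only. The mean of Rgs9 in cortex was 2.73 at 2 months and 1.52 at 29 months. The young cortex was thus the brighter for this gene, and whether the dissected tissue differed between the ages was not tested. The list held 2 interactions under scaling to the median, 3 with the replicate number as a block, 3 without cortex replicate 4, cerebellum replicate 1 or cerebellum replicate 2, and 1 with cerebellum replicates 3 and 4 only. Forebrain factors had no interaction, with medians of 2.94 and 2.27, nor did Purkinje cell markers, with -3.28 and -3.18.

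The largest single interactions toward cortex at 2 months were Ostn, a secreted peptide of muscle and neurons, Hpse, a heparanase, Tcap, a sarcomere protein, and Mstn, the growth factor myostatin. Hpse was not above background on any young cerebellum array, was at least 3.39-fold higher in young cortex and differed by -0.02 at 29 months. Tcap differed by 2.66 and -0.11. Ostn and Mstn were not above background on all arrays of either young region, and were well above background on 4 of 4 aged cerebellum arrays. In the other direction, Ntf3, the neurotrophin 3 of granule cells, measured -1.34 to -0.41 in cortex and 1.21 to 1.46 in cerebellum at 2 months, and its regional difference was -2.05 at 2 months and 0.55 at 29 months. The neurotrophin was thus higher in cerebellum at 2 months. Ankrd22 and Smok2b were above background in the aged cortex alone among these 4 groups, so their interactions have no measured size. With normexp neither was called (-0.67 and -0.71), and Ankrd22 was not called without 29-month cortex replicate 3 or with cerebellum replicates 3 and 4 only. Ttr had the largest value, -7.62, and was not called without cerebellum replicate 1 (limma, adjusted p = 0.0537), with cerebellum replicates 3 and 4 only (-5.45) or in the fit on the compared groups alone.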

How the data were processed

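RNA of cerebral cortex and cerebellum was hybridized to Agilent 1-colour arrays. For each array the authors deposited the table of spots of Feature Extraction (10.7.3.1 per the file headers, 10.1.1.1 in the submitters' processing notes). Its processed signal, deposited as an intensity, is background-subtracted and detrended within the array. The deposited mean signal and local background are intensities without that correction, and the deposited flags take the values 0 and 1. The authors also deposited a table on the log2 scale, which is centred by probe and differed by a median of 0.00100 from the values used here after the same centring. The methods name global normalization, log2 values, a 1.5-fold threshold, and a t-test for 2 groups without saying whether it was used on arrays.

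Here R 4.3.3, with version 1.17.8 of data.table, read the signals. Flagged outlier and non-uniform spots were left out and spots of a probe were averaged, which left 55589 of 55681 probes with a value on all 40 arrays. From each log2 signal that of the 75th percentile was subtracted, array by array. Groups were compared with limma 3.58.1, with 1 coefficient for each of the 10 groups, over all 40 arrays. Benjamini-Hochberg adjustment covered the probes that at least 1 compared group showed well above background on 4 of 4 arrays. The model was also run on simulated arrays with known regional differences, and the outcome is not reported here. The number of arrays limits the precision.

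The genes and the 38 lists were chosen with earlier results of these data known, so the counts of list members are descriptions. Named genes are the 12 with the largest called differences in each direction and no overlap, and the 4 in each direction for the difference between ages. To these were added list members with the largest differences or against their list, and 10 genes the study named. Gm2252, which the study also named, was not among the 10. Further list members were named after their values were seen, and some genes are not reported here. The brightest probe over the 40 arrays stands for a gene, and the list counts rest on it alone. Another probe was called differently for 3 forebrain factors, 3 microglial markers, 2 choroid plexus genes and 2 Hedgehog genes, and in some other lists. Not all of these genes are named. Probe positions are on mm9. Of 21056 transcript identifiers, 20614 matched the table of RefSeq names, and 2222 carry another symbol there. Promoter sequences are from RefSeq, on GRCm38.p6.

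Alternatives were median scaling, quantile normalization, the authors' log2 values, normexp (offset 50), other filters on dim probes, the compared groups alone, the replicate number as a block, the slide as a block or held constant, array weights, the methods' t-test, other thresholds, genes in place of probes, leaving out each array, and 2 of the cerebellum arrays at a time. The array comparisons of other ages, diets and genotypes were used here only for the spread, the age contrast and the slide check.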

Additional observations from a re-analysis of the deposited data

Results flagged for a closer look

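In 40 of 444 groups of 4 arrays checked, 1 array stood apart from the other 3 by Dixon's criterion. This sets the gap at an end against the range of the 4 values, so gaps small in log2 also count, as for Gda in cortex. Groups with no array above background could not count among the 40. The genes share the same arrays and were partly named after their values were seen, so no chance rate is set beside this count. For cortex replicate 1, the log2 signal stood apart for Slc1a6 (2.39 against 2.47 to 2.48). For cortex replicate 2, the log2 signal stood apart for Actb (8.54 against 8.33 to 8.36) and Cdh15 (-1.07 against -0.83 to -0.79). For cortex replicate 3, the log2 signal stood apart for Cnr2 (2.75 against 1.54 to 1.72) and Crtam (-3.97 against -6.43 to -6.20). For cortex replicate 4, the log2 signal stood apart for Chrm3 (0.87 against 0.06 to 0.15), Chrna7 (-2.88 against -2.46 to -2.41), Crym (3.90 against 5.26 to 5.38), Emx1 (1.35 against 0.67 to 0.77) and Etv1 (4.25 against 4.67 to 4.72). The same array stood apart for Gabra2 (1.102 against 1.73 to 1.75), Gabrd (4.37 against 3.65 to 3.75), Gda (6.01 against 6.04 to 6.05), Grm7 (2.44 against 2.53 to 2.54), Hba-a1 (-1.775 against 0.015 to 0.32) and Hbb-b2 (-4.83 against -2.72 to -2.42). It also stood apart for Kit (1.33 against 1.91 to 2.00), Lamp5 (3.23 against 2.57 to 2.66), Npy (4.05 against 3.43 to 3.52), Ntf3 (-1.34 against -0.49 to -0.41), Otx2 (-3.39 against 0.07 to 0.52) and P2ry12 (1.14 against 0.85 to 0.88). The same array stood apart for Rorb (3.07 against 2.12 to 2.25), Slc4a4 (1.75 against 1.42 to 1.47), Spink8 (-2.27 against 1.73 to 2.14), Sstr2 (-0.98 against -1.71 to -1.66), Trem2 (2.56 against 2.00 to 2.07) and Ttr (0.76 against 6.71 to 6.90). For cerebellum replicate 1, the log2 signal stood apart for App (6.33 against 6.50 to 6.53), Boc (2.08 against 2.17 to 2.19), Gas1 (-0.33 against -0.51 to -0.48), Prox1 (-1.84 against -1.496 to -1.45) and Tdo2 (-2.56 against -2.92 to -2.87). For cerebellum replicate 2, the log2 signal stood apart for Slc1a2 (1.87 against 2.10 to 2.13) and Tnnc1 (-4.14 against -3.56 to -3.46). For cerebellum replicate 3, the log2 signal stood apart for Hbb-b1 (0.054 against 1.49 to 1.59) and Hbb-b2 (-1.88 against -0.54 to -0.39). For cerebellum replicate 4, the log2 signal stood apart for Cdh15 (2.87 against 3.401 to 3.50), Chrnb2 (2.28 against 2.45 to 2.46) and Drd1 (-4.66 against -6.82 to -6.58).

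The regional log2 difference changed between 2 and 29 months by the interaction test of limma (a negative change is toward cerebellum at 2 months). Kcnv1, Krt12 and Hpse were above background on 0 of 4 young cerebellum arrays, and Ostn, Mstn, Ankrd22 and Smok2b on at most 1 of 4 arrays of either young region, so that the values of these genes are as read and are not measured sizes. It changed for Ostn by 5.70 (0.75 at 2 months, -4.95 at 29 months), Hpse by 3.07 (3.06 at 2 months, -0.02 at 29 months), Tcap by 2.76 (2.66 at 2 months, -0.11 at 29 months) and Mstn by 2.74 (0.56 at 2 months, -2.18 at 29 months). The difference changed for Rgs9 by 2.17 (3.56 at 2 months, 1.39 at 29 months), Crym by 2.05 (9.89 at 2 months, 7.84 at 29 months) and Kcnv1 by 1.90 (8.96 at 2 months, 7.06 at 29 months). Further changes were those of Trem2 by 1.82 (1.71 at 2 months, -0.11 at 29 months), Drd2 by 1.75 (1.09 at 2 months, -0.67 at 29 months), Krt12 by 1.75 (8.50 at 2 months, 6.75 at 29 months) and Tyrobp by 1.71 (1.51 at 2 months, -0.20 at 29 months). It changed for Tnnc1 by 1.61 (2.73 at 2 months, 1.12 at 29 months), Ptk2b by 1.60 (5.73 at 2 months, 4.13 at 29 months), Htr2a by 1.54 (4.82 at 2 months, 3.27 at 29 months) and Fcrls by 1.496 (2.35 at 2 months, 0.85 at 29 months). The difference changed for C1qa by 1.38 (1.60 at 2 months, 0.22 at 29 months), Adrb3 by 1.12 (3.61 at 2 months, 2.49 at 29 months), Vipr2 by 1.08 (-2.85 at 2 months, -3.93 at 29 months) and Cx3cr1 by 0.9956 (2.08 at 2 months, 1.09 at 29 months). Further changes were those of Th by 0.97 (-1.07 at 2 months, -2.04 at 29 months), Csf1r by 0.77 (1.73 at 2 months, 0.96 at 29 months), Tmem119 by 0.73 (2.09 at 2 months, 1.35 at 29 months) and Crhr1 by 0.71 (-1.08 at 2 months, -1.79 at 29 months). It changed for Cdon by -0.62 (-2.14 at 2 months, -1.53 at 29 months), Cdh15 by -0.75 (-4.18 at 2 months, -3.43 at 29 months), Zic1 by -0.82 (-6.22 at 2 months, -5.40 at 29 months) and Ntf3 by -2.59 (-2.05 at 2 months, 0.55 at 29 months). The difference changed for Smok2b by -2.85 (0.34 at 2 months, 3.19 at 29 months), Ankrd22 by -3.59 (0.58 at 2 months, 4.17 at 29 months) and Ttr by -7.62 (1.26 at 2 months, 8.87 at 29 months).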

How the results depend on the processing

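Of 231 values of single genes, 207 were called. Of the 231, 187 kept their direction and their side of the thresholds under every alternative that scored single genes. Single genes were not scored with other filters on dim probes, other thresholds of the fit, or genes in place of probes. The regional counts, 5766 probes toward cortex and 5825 toward cerebellum, stayed within 1.5 times except for 3670 toward cerebellum with the normexp background correction, 9858 and 9022 with the adjusted p alone, and 3297 and 3469 with a fold change over 2. Leaving out each array gave 5519 to 5918 and 5583 to 5964. On the compared groups alone the counts were 5708 and 5762, and Ier2 and Dcn were not called (limma, adjusted p = 0.06999 and 0.1233). The 314 and 145 differences between the ages moved more. They were 96 and 46 with median scaling, 697 and 346 with array weights, 191 and 58 with a fold change over 2, and 1190 and 557 with unadjusted p values, and the second was 223 with the adjusted p alone. Leaving out each array gave 205 to 575 and 99 to 182, with 205 without cerebellum replicate 2 and 575 without cerebellum replicate 4. With cerebellum replicates 1 and 2 only, an alternative chosen after seeing the data like its counterpart, 822 lay toward cortex, and with replicates 3 and 4 only 115 and 79. The cause of these shifts was not tested.

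The replicate block, fitted to the compared groups alone, gave 5567 and 5503 regional calls and 162 and 92 differences between the ages. Deviations of same-numbered arrays from their group means correlated at 0.0157, -0.0441, -0.146 and 0.133. Those of arrays with different numbers correlated at -0.218 to 0.172. Differences between whole arrays enter these values, so they do not settle whether same-numbered arrays came from the same mouse. The main fit did not pair them.

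Values that changed sign were those of Htr1b (0.0462) with normexp, and Nxph4 (0.16) and Ppp1r1b (1.27) with the slide as a block in an additive fit. Against the Ttpa-/- cortex on the slide of the cerebellum arrays, those of Hapln2 (0.0204), Hbb-b1 (2.09), Hbb-b2 (2.31) and Hba-a1 (2.22) did. Of these, Htr1b, Nxph4 and Hapln2 lost their call and were not called the other way (limma, adjusted p = 0.694, 0.715 and 0.917). Slc17a6 was -1.46 with cerebellum replicates 3 and 4 only, and Foxp2 0.79 with replicates 1 and 2 only. Of the 11591 calls, 8951 were called the same way in the additive slide fit and 1 the other way. Within the slide, where genotype, age and diet differ as well, these were 9717 and 17. In the additive slide fit, 16 single-gene values lost their call without a change of sign. Among them were Ttpa (-0.87), Slc18a3 (1.19), Klk6 (-2.69), Otx2 (-2.72), Mfsd2a (1.18) and Gabra2 (0.84). Within the slide 7 did, among them Gabra2 (0.36), Gad1 (-0.56) and Olig1 (0.56). Slide as a random block was not run, because each group lies on 1 slide, and the methods' t-test, which compares 2 groups, was not run for the differences between ages. The median difference over all probes was 0.02 with the 75th percentile and with the median, -0.02 after quantile normalization and 0.09 after normexp. Genes near background are limited to lower bounds in the dim region.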
